A study of Mus musculus with 24 samples.

Results

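Wnt ligands are secreted, lipid-modified glycoproteins, and 10 of their genes were followed here in heart fibroblasts of the mouse: Wnt2, Wnt2b, Wnt4, Wnt5a, Wnt5b, Wnt9a, Wnt9b, Wnt10b, Wnt11 and Wnt16. They are named one by one rather than selected with a threshold, and are 10 of 35727 rows of the deposited count table and 10 of the 19 Wnt ligand genes in it. The table holds messenger RNA sequencing counts of heart fibroblasts kept in EGM2, an endothelial growth medium, under 4 conditions labelled Erg, Sox17, SEG and control. Cells of each condition were harvested at day 3 and at day 7, with 3 libraries per group and 24 in all. Erg and Sox17 are transcription factors of endothelium. The design text calls the cells of the Erg, Sox17 and SEG conditions aiECs and asks how far they take on the identity of endothelium. It spells out neither SEG nor aiEC, and how Erg and Sox17 were brought into the cells is not given in the sources used here. Age, strain and sex of the animals are also not given there. Whether the 3 libraries of a group stem from different cultures or animals is not stated in the labels, and p-values therefore reflect only how these libraries vary, which may be technical variation.

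Total counts ran from 18794422 to 44586227 per library. Sox17 transcripts stood at 461 to 1653 CPM, the count scaled to library size with TMM factors, in the 12 Sox17 and SEG libraries and at 0 to 0.508 CPM in the other 12. Their mean was lower in SEG than in Sox17, at 1008 ± 49.9 against 1606 ± 53.0 CPM on day 3 (SD, n = 3 each). On day 7 it was 699 ± 206 against 1080 ± 402 CPM. The part of this difference in the comparisons that involve SEG was not tested. Erg transcripts stood at 836 to 7133 CPM in the 12 Erg and SEG libraries and at 0 to 0.113 CPM in the other 12. The levels of both genes thus sat on the side their labels name, with SEG taken to carry both. The wide Erg range is given over both conditions together, and its part in the comparisons of SEG with Erg was not tested. All 10 fibroblast markers examined, among them Pdgfra, Col1a1 and Dcn, were above 0 in every group. Replicate 1 of Sox17 at day 7 stood apart, with 8.5% of its counts in ribosomal protein genes and 0.880% in mitochondrial genes. In replicate 1 of SEG at day 7 ribosomal protein genes took 5.79%, against 3.38% to 5.26% in the remaining libraries. These are called the outlying day 7 libraries, and day 7 values of Sox17 and SEG are also given without them, except where a ligand or pathway gene moved little and kept its call. Their Sox17 transcripts were the lowest of their groups. The outlying Sox17 library had 616 CPM, against 1303 and 1322 in the others. The outlying SEG library had 461 CPM, against 819 and 816.

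As background, Wnt proteins are acylated in the endoplasmic reticulum by Porcn, carried to the surface by Wls, and bind Frizzled receptors together with the co-receptors Lrp5 or Lrp6. That signal stabilises beta-catenin, which acts with TCF and LEF factors on target genes such as Axin2 and Nkd1. Other ligands, of which Wnt5a and Wnt11 are the usual examples, act mainly through Ror, Ryk or Frizzled receptors without beta-catenin and steer cell polarity and movement. Secreted antagonists catch the ligand (the Sfrp family, Frzb, Wif1) or block the co-receptor (Dkk1, Sost). In endothelium Wnt signalling is known for brain vessel growth and barrier formation, and Wnt2 and Wnt9b are known as ligands made by endothelial cells of the liver.

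All 10 genes are annotated as protein coding, and their positions below are those of mm10. Because the conditions are named after an ETS factor (Erg) and a SOX factor (Sox17), the promoters were searched on both strands for the ETS motifs AGGAAG and CGGAAG, the SOX motif ACAAT and the TCF/LEF motif ACAAAG. RefSeq promoter windows of GRCm38.p6, 250 bases before to 50 bases after a start site, were matched for 9 of the 10 genes in 12 windows. No window was matched for Wnt5a. The 250 bases before the start are printed for 3 ligands with differing patterns, Wnt9b of the Erg libraries, Wnt16 of the Sox17 libraries and Wnt11, which was above control in all 3 conditions. They run 5′ to 3′ on the strand of the gene, with motif matches in capitals.
Wnt9b (chr11:103749822-103750071, minus strand): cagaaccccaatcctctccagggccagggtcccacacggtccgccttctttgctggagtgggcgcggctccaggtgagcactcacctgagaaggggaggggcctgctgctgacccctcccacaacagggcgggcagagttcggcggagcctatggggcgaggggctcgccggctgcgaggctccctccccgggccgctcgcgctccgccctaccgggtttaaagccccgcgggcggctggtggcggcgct
Wnt16 (chr6:22287977-22288226, plus strand): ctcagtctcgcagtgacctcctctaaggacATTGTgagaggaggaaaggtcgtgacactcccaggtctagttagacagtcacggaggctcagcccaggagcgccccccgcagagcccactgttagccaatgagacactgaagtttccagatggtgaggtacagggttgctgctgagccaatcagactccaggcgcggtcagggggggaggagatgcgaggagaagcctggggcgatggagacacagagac
Wnt11, first of its 2 windows (chr7:98834862-98835111, plus strand): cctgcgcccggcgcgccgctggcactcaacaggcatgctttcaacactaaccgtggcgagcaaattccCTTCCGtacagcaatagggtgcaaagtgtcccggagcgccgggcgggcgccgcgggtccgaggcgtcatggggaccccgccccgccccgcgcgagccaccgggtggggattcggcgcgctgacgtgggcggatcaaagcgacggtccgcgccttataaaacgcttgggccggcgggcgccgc
The Wnt9b window held none of the 4 motifs. That of Wnt16 held ACAAT on the opposite strand at −220 from the start, and none of the other motifs. The window printed for Wnt11 held CGGAAG on the opposite strand at −182, and its second window held AGGAAG on the opposite strand at −64. Of the 3 windows of Wnt5b, the first held CGGAAG at −104 and the second AGGAAG on the opposite strand at −160. The windows of Wnt2, Wnt2b, Wnt4, Wnt9a and Wnt10b held none. Of 32851 promoter windows of the same length, 46.5% held an ETS motif of either kind, 31.0% ACAAT and 18.7% ACAAAG. A match is a description of these letters and not a binding site, and no match says only that the letters are not in this window.

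In the group means Wnt5a led the ligands in Sox17, SEG and control, and Wnt9b led them in Erg. Set per kilobase of merged exons, so that genes can be compared, all 19 ligands together came to 17.5 ± 1.21 CPM per kilobase in Erg, 51.4 ± 6.47 in Sox17, 32.4 ± 1.48 in SEG and 6.29 ± 0.402 in control at day 3 (SD, n = 3 each). At day 7 the sums were 15.9 ± 0.935 in Erg, 47.7 ± 14.8 in Sox17, 29.8 ± 5.49 in SEG and 7.06 ± 0.672 in control. The outlying libraries had the lowest sums of their groups, 31.0 CPM per kilobase in Sox17 and 23.5 in SEG, against 53.1 and 59.1 in the other Sox17 libraries and 32.1 and 33.7 in the other SEG libraries of day 7. The libraries of Erg, Sox17 and SEG all lay above those of control at either day, and the 10 genes made up 91.8% to 99.7% of these sums in the group means. In the Sox17 and SEG groups Wnt5a alone took most of the sum, 76.2% ± 2.69 in Sox17 and 84.8% ± 1.68 in SEG at day 3, and 64.3% ± 16.0 in Sox17 and 71.1% ± 8.5 in SEG at day 7. In the outlying libraries its share was 46.1% in Sox17 and 61.3% in SEG, and without them it was 70.2% and 76.5% in Sox17 and 76.8% and 75.2% in SEG. Wnt5a was also first in control, at 41.8% ± 1.05 on day 3 and 48.5% ± 1.57 on day 7, where Wnt9a followed with 28.9% ± 1.98 and 21.5% ± 1.08. Erg libraries were led instead by Wnt9b, with 38.7% ± 1.40 at day 3 and 25.7% ± 2.12 at day 7, ahead of Wnt5a with 25.5% ± 1.85 and 20.8% ± 2.72.

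**Figure D1:**
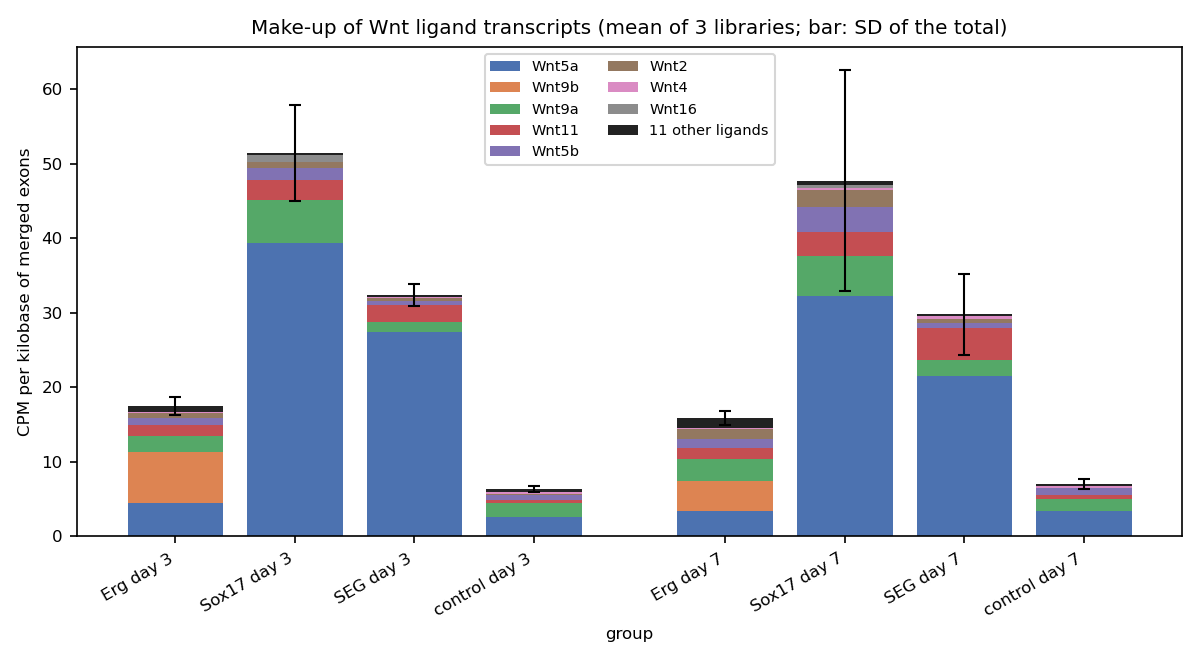
Stacked mean levels of Wnt ligand transcripts per group, in CPM per kilobase of merged exons, from 3 libraries each; error bars are the SD of the summed level. Wnt5a fills most of the Sox17 and SEG bars, the Wnt9b segment appears in the 2 Erg bars, and control has the lowest bars, at 6.29 on day 3 and 7.06 on day 7.

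Counts of ligands called in each comparison with control were read against the share of all 14804 tested genes that was called. A call is a Benjamini-Hochberg adjusted p under 0.05 in edgeR's quasi-likelihood test over all tested genes, and 9 of the 10 ligands passed the filter on low counts. Wnt10b did not, with 0 to 5 counts per library. With Erg at day 3, 4 ligands were higher and 1 was lower (of all genes 46.1% were called, 22.6% higher and 23.5% lower). With Sox17 at day 3, 6 were higher and 1 lower (40.4% called, 20.8% higher and 19.6% lower), and in SEG 3 were higher and 0 lower (40.2% called, 20% higher and 20.2% lower). With Erg at day 7, 4 were higher and 0 lower (48.5% called, 23.7% higher and 24.8% lower). With Sox17 at day 7, 6 were higher and 0 lower (54.5% called, 29.5% higher and 25% lower), and in SEG 4 were higher and 1 lower (44.3% called, 22.5% higher and 21.8% lower). The counts are too small to set the share of ligands called apart from that of all genes. The median log2 change was 0.32 and 0.37 with Erg at day 3 and day 7, 2.30 and 2.21 with Sox17, and −0.07 and 0.50 in SEG, with ratios or bounds in place of fitted values where a group had 3 or fewer counts and Wnt9b left out where both groups were so low. Over all tested genes the median lay between −0.02 and 0.05. The 10 ligands were chosen with earlier results of these data known, so a median apart from that of all genes may follow from the choice. In bulk RNA, fewer cells of a type and less RNA per cell cannot be told apart, which holds for every change below.

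**Figure D2:**
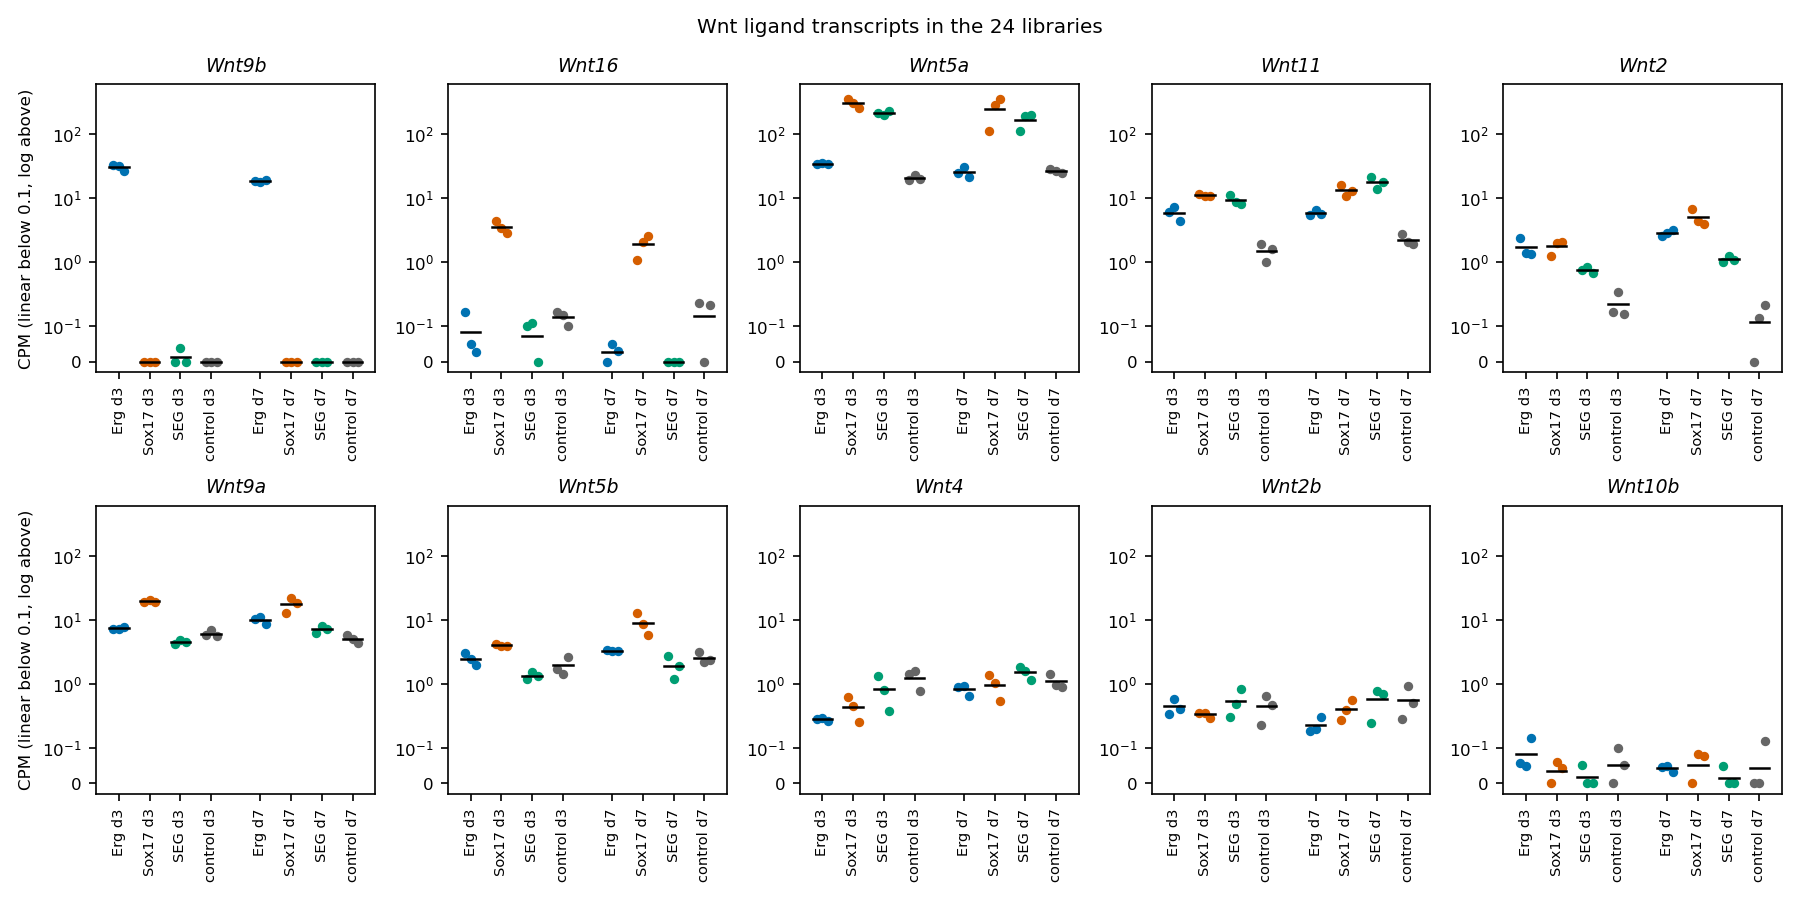
CPM of each of the 10 Wnt ligands in all 24 libraries (points; 3 libraries per group, bars are means; the axis is linear below 0.1 CPM and logarithmic above). Wnt9b stands at 18 to 32.6 CPM in the 6 Erg libraries and at or next to 0 elsewhere, Wnt16 is high in the 6 Sox17 libraries, and Wnt5a is high in all Sox17 and SEG libraries.

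Wnt9b (ENSMUSG00000018486, chromosome 11, 103727364 to 103749821, minus strand), a beta-catenin ligand that starts tubule formation in the mouse kidney, was found in Erg libraries. It had 32.6, 32.4 and 27.1 CPM in Erg libraries at day 3 and 18.3, 18 and 19.0 CPM at day 7. In SEG it had a single count in 1 library of day 3, which is 0.0377 CPM, and 0 counts in the other SEG libraries. All 6 Sox17 libraries and all 6 control libraries had 0 counts. The Erg level exceeded that of control at least 575-fold on day 3, and on day 7 at least 391-fold, against a floor of 3 counts over the control group (adjusted p = 3.53e-09 and 6.4e-09). Floors and counting intervals cover counting error only. With Erg, Wnt9b was lower at day 7 than at day 3 (log2 change −0.73 ± 0.16 SE, adjusted p = 0.00617). Its neighbour on the chromosome, Wnt3, stayed at 0.335 CPM or less in every library.

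Although SEG libraries carry Erg transcripts, Wnt9b stayed near 0 in them. Erg levels are given here only as a joint range of both conditions, 836 to 7133 CPM. The part of any difference in Erg level between SEG and Erg was not tested. At day 3 SEG held 1 count against 2181 in Erg, a ratio of 1 to 2180 with a 95% counting interval of 391 to 86146. At day 7 SEG held 0 counts against 1389 in Erg, at least 432-fold lower. Both differences were called (adjusted p = 2.02e-09 and 4.04e-09).

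Wnt16 (ENSMUSG00000029671, chromosome 6, 22288227 to 22298522, plus strand), a ligand of bone and, in zebrafish, of blood stem cell specification, was high in the Sox17 libraries. At day 3 it had 4.49, 3.47 and 2.82 CPM in Sox17 libraries, against 0.167, 0.149 and 0.102 CPM in control. On day 7 it had 1.09, 2.05 and 2.61 CPM in Sox17 libraries, against 0.227, 0 and 0.212 CPM in control. The lowest of these Sox17 libraries lay above every control library, and the log2 change was 4.65 ± 0.61 at day 3 and 3.69 ± 0.61 at day 7 (adjusted p = 5.4e-06 and 5.57e-05). The day 7 change was 3.09 without replicate 2 of control and 4.01 without both outlying libraries. Erg libraries had 0.169, 0.0488 and 0.0288 CPM at day 3 and 0, 0.0489 and 0.0305 CPM at day 7, a range that overlaps control at either day. SEG libraries had 0.102, 0.113 and 0 CPM at day 3 and 0 counts in all 3 libraries at day 7. The day 7 level of SEG was called lower than control, at least 3.31-fold (0 against 9 counts, adjusted p = 0.0178), a call lost without replicate 1 or replicate 3 of control (adjusted p = 0.0522 and 0.0635). Against Sox17 alone, Wnt16 was lower in SEG by a log2 change of −5.61 ± 0.65 at day 3 (adjusted p = 2.44e-06; −6.21 without replicate 2 and −4.99 without replicate 3 of SEG). At day 7 it was at least 41.7-fold lower in SEG (0 counts against 192).

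Wnt5a (ENSMUSG00000021994, chromosome 14, 28504750 to 28527448, plus strand), the prototype of the ligands that act without beta-catenin, had the highest level of the ligands in Sox17 and SEG libraries. At day 3 it had 34.0, 36.1 and 34.4 CPM in Erg, 359, 303 and 260 in Sox17, 213, 202 and 229 in SEG, and 19.2, 22.7 and 19.9 in control. By day 7 the libraries had 25.1, 31.3 and 21.6 CPM in Erg, 112, 291 and 354 in Sox17, 113, 193 and 198 in SEG, and 28.5, 26.6 and 25.1 in control. The lowest values of Sox17 and of SEG at day 7 were those of their outlying libraries, and both still lay above every Erg and control library. Erg lay above control without overlap at day 3 and overlapped it at day 7. Against control the log2 change was 3.90 ± 0.31 with Sox17 and 3.38 ± 0.30 in SEG at day 3 (adjusted p = 2.48e-09 and 1.71e-08). The day 7 change was 3.24 ± 0.30 with Sox17 and 2.65 ± 0.29 in SEG (adjusted p = 1.8e-08 and 2.73e-07), and 3.63 and 2.91 without both outlying libraries. With Erg it was 0.76 ± 0.28 at day 3 (adjusted p = 0.0355), a call lost whichever of the 6 libraries compared was left out (adjusted p = 0.0534 to 0.0989). These were the 6 of 13 settings that did not call it, and every other setting kept the call, with log2 changes of 0.71 to 0.83 over all settings. With Erg it did not pass at day 7 (adjusted p = 0.914).

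Between SEG and Sox17, Wnt5a did not pass at day 3 (log2 change −0.52, adjusted p = 0.184) or at day 7 (−0.59, adjusted p = 0.0966). The day 3 difference was called when the 2 groups were fitted alone (adjusted p = 0.00188) and without both outlying libraries (adjusted p = 0.000207). At day 7 it was called without replicate 1 of Sox17 (−0.94), without both outlying libraries (−0.72) and with a replicate block within the 2 groups (−0.48, adjusted p = 0.00523). Replicates with the same number in these 2 groups deviated together, with low Wnt5a in replicate 1 of either. Across the 24 libraries the gene of the table most like Wnt5a, after Nyap2 (Pearson r of log2 CPM 0.984), was Sox17 itself (r = 0.976), followed by Lama3 (r = 0.973). These correlations are descriptions over libraries that share 8 groups.

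Wnt11 (ENSMUSG00000015957, chromosome 7, 98835112 to 98855195, plus strand), another ligand mainly without beta-catenin and a factor of early heart development, was above control in all 3 conditions. Erg libraries had 6.04, 7.18 and 4.36 CPM at day 3 and 5.5, 6.46 and 5.67 at day 7. Sox17 libraries had 11.7, 10.9 and 10.8 CPM at day 3 and 16.1, 10.9 and 13.1 at day 7, and SEG libraries 11.2, 8.86 and 8.19 at day 3 and 21.3, 14 and 18 at day 7. Control libraries had 1.90, 0.991 and 1.59 CPM at day 3 and 2.72, 2.09 and 1.90 at day 7, and none of them reached any library of the other conditions. The log2 changes against control at day 3 were 1.97 ± 0.25 with Erg, 2.91 ± 0.24 with Sox17 and 2.66 ± 0.24 in SEG (adjusted p at most 1.62e-06). At day 7 they were 1.40 ± 0.23, 2.59 ± 0.23 and 3.00 ± 0.23 in the same order (adjusted p at most 4.93e-05), and 2.47 with Sox17 and 2.89 in SEG without both outlying libraries. In the order of the 8 groups the upper 4 were SEG and Sox17 at day 7, then Sox17 and SEG at day 3. Neighbours among these 4 overlapped, as did Erg at day 7 and Erg at day 3. The lowest library of the upper 4, at 8.19 CPM in SEG at day 3, lay above all Erg libraries. The locus overlaps the pseudogene Gm8398, which had 0 counts.

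Wnt2 (ENSMUSG00000010797, chromosome 6, 17988940 to 18030585, minus strand), a beta-catenin ligand of lung and heart development, was scarce in control and higher in all 3 conditions. It had 2.43, 1.42 and 1.33 CPM in Erg, 1.24, 2.03 and 2.10 in Sox17, 0.767, 0.830 and 0.673 in SEG, and 0.167, 0.347 and 0.154 in control at day 3. At day 7 the libraries had 2.59, 2.89 and 3.17 CPM in Erg, 6.86, 4.39 and 3.97 in Sox17, 1, 1.27 and 1.10 in SEG, and 0, 0.136 and 0.212 in control. No library of the 3 conditions overlapped control, and the 6 SEG libraries lay below all Erg and Sox17 libraries of the same day. At day 3 the log2 change was 2.89 ± 0.43 with Erg, 2.96 ± 0.43 with Sox17 and 1.73 ± 0.47 in SEG (adjusted p at most 0.00549). At day 7 it was 4.48 ± 0.45 with Erg, 5.29 ± 0.44 with Sox17 and 3.12 ± 0.49 in SEG (adjusted p at most 2.36e-05). Control held few counts, and without replicate 3 of control the day 7 changes were 5.18 with Erg, 5.99 with Sox17 and 3.82 in SEG. The highest value of all, 6.86 CPM, was that of the outlying Sox17 library, and without both outlying libraries the Sox17 change was 5.04.

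Wnt9a (ENSMUSG00000000126, chromosome 11, 59306928 to 59333552, plus strand), a ligand of joint and cartilage formation, was highest with Sox17. It had 7.23, 7.18 and 7.82 CPM in Erg, 18.9, 20.4 and 19.2 in Sox17, 4.19, 4.79 and 4.49 in SEG, and 5.69, 6.99 and 5.53 in control at day 3. On day 7 there were 10.4, 11 and 8.68 CPM in Erg, 12.8, 22.1 and 18.5 in Sox17, 6.22, 8.04 and 7.21 in SEG, and 5.84, 4.95 and 4.4 in control. Sox17 libraries lay above all others of the same day, and at day 3 SEG lay below control without overlap. With Sox17 the log2 change was 1.68 ± 0.17 at day 3 and 1.82 ± 0.17 at day 7 (adjusted p = 5.46e-08 and 1.53e-08; 2.05 at day 7 without both outlying libraries). With Erg it did not pass at day 3 (adjusted p = 0.174) and was 0.99 ± 0.17 at day 7 (adjusted p = 6.46e-05). In SEG it was −0.43 ± 0.17 at day 3 (adjusted p = 0.0507, and 0.00701 without both outlying libraries) and 0.50 ± 0.17 at day 7 (adjusted p = 0.0197). The day 7 call was lost without replicate 2 or 3 of control or replicate 2 of SEG (adjusted p = 0.0557, 0.097 and 0.0891). Its neighbour Wnt3a had at most 0.0305 CPM in any library.

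Wnt5b (ENSMUSG00000030170, chromosome 6, 119432531 to 119544347, minus strand), the close relative of Wnt5a, was also highest with Sox17, but at a lower level. At day 3 it had 2.99, 2.44 and 1.96 CPM in Erg, 4.24, 3.83 and 3.96 in Sox17, 1.18, 1.55 and 1.31 in SEG, and 1.73, 1.44 and 2.66 in control. By day 7 there were 3.42, 3.23 and 3.20 CPM in Erg, 12.6, 8.62 and 5.78 in Sox17, 2.68, 1.19 and 1.91 in SEG, and 3.18, 2.18 and 2.33 in control. Sox17 libraries did not overlap the others of the same day, while SEG and control overlapped at either day. With Sox17 the log2 change was 1.04 ± 0.29 at day 3 and 1.83 ± 0.28 at day 7 (adjusted p = 0.00684 and 1.51e-05), and 1.55 at day 7 without both outlying libraries. The changes with Erg did not pass (adjusted p = 0.418 and 0.31), nor did those in SEG (log2 change −0.52 and −0.41, adjusted p = 0.213 and 0.292), although the day 7 one was called without both outlying libraries (−0.67, adjusted p = 0.0415). Wnt5b overlaps Fbxl14 on the opposite strand, which had up to 1564 counts in a library. The overlap is that of gene starts and ends, and whether exons of both genes overlap was not examined. The strand setting of the counting is not given in the sources used here, so reads of any shared exons could not be told apart.

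Wnt4 (ENSMUSG00000036856, chromosome 4, 137277489 to 137299726, plus strand), a ligand of kidney tubule and ovary formation, fell with Erg and Sox17 at day 3. At day 3 it had 0.282, 0.293 and 0.260 CPM in Erg, 0.622, 0.441 and 0.253 in Sox17, 1.33, 0.792 and 0.374 in SEG, and 1.39, 1.59 and 0.768 in control. The day 7 libraries had 0.878, 0.929 and 0.640 CPM in Erg, 1.36, 1.01 and 0.529 in Sox17, 1.82, 1.60 and 1.14 in SEG, and 1.42, 0.955 and 0.888 in control. Erg and Sox17 libraries lay below control without overlap at day 3 and overlapped it at day 7. The log2 change at day 3 was −2.16 ± 0.47 with Erg (adjusted p = 0.000866) and −1.46 ± 0.43 with Sox17 (adjusted p = 0.00951, and 0.0525 without replicate 2 of control). No other comparison with control passed for it (adjusted p at least 0.269). Wnt2b (ENSMUSG00000027840, chromosome 3, 104945272 to 104961921, minus strand), a relative of Wnt2, lay between 0.185 and 0.909 CPM in all libraries and passed no comparison with control. For Erg at day 7 its log2 change was −1.27 (adjusted p = 0.0507, but 0.0242 without replicate 1 of control and 0.0311 without both outlying libraries). Wnt10b (ENSMUSG00000022996, chromosome 15, 98770712 to 98778150, minus strand), a ligand known for holding back fat cell formation, had 0 to 0.144 CPM, each of its 8 groups overlapped the next in the order of their levels, and its neighbour Wnt1 had at most 0.0815 CPM.

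**Figure D3:**
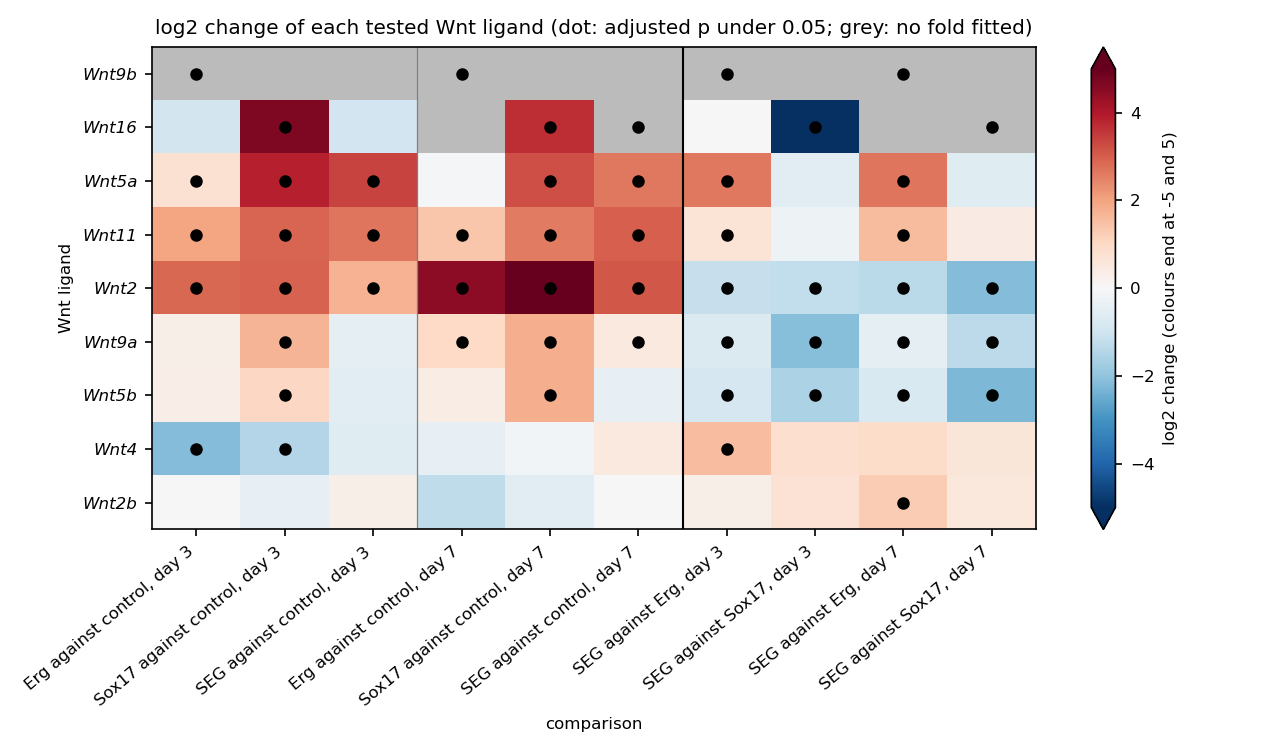
Log2 changes of the 9 tested ligands in the comparisons with control (left of the thick line, day 3 then day 7) and of SEG with Erg or Sox17 (right of it); colours end at −5 and 5, dots mark adjusted p under 0.05, and grey cells have 3 or fewer counts in a group, so that no fold is shown. Wnt11 and Wnt2 have a dot in all 6 comparisons with control, and Wnt2, Wnt9a and Wnt5b are lower in SEG in all 4 comparisons on the right.

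SEG was set against each factor alone to see where the joint condition differed. Compared with Erg at day 3, SEG had 3 ligands higher and 4 lower (51% of all genes were called, 25.7% higher and 25.3% lower). At day 7 the counts were again 3 and 4 (49.4% called, 24.7% higher and 24.8% lower). Wnt5a was higher in SEG than in Erg by 2.62 ± 0.29 on the log2 scale at day 3 and by 2.69 ± 0.29 at day 7 (adjusted p = 2.55e-07 and 2.1e-07). Wnt11 was higher by 0.69 ± 0.21 at day 3 (adjusted p = 0.00978, lost without replicate 3 of Erg, 0.0729, or replicate 1 of SEG, 0.0568) and by 1.60 ± 0.21 at day 7 (adjusted p = 2.55e-06). Wnt4 was higher at day 3 (1.54 ± 0.48, adjusted p = 0.0118, and 0.0901 without replicate 1 of SEG). Wnt2b was higher at day 7 (1.28 ± 0.52, adjusted p = 0.0468), a call lost without any Erg library and without replicate 2 or 3 of SEG (adjusted p = 0.0534 to 0.183). It was also lost with RLE size factors (0.0510), without the filter (0.0746) and by DESeq2 (0.0517). Without both outlying libraries the day 7 values were 2.91 for Wnt5a, 1.44 for Wnt11 and 1.61 for Wnt2b.

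Wnt2 was lower in SEG than in Erg at day 3 (−1.16 ± 0.35, adjusted p = 0.00911, and 0.0651 without replicate 1 of Erg) and at day 7 (−1.35 ± 0.33, adjusted p = 0.00168). Wnt9a was lower by −0.72 ± 0.17 at day 3 (adjusted p = 0.00129) and by −0.48 ± 0.16 at day 7 (adjusted p = 0.0191, lost without replicate 1 or 2 of Erg or replicate 1 of SEG, 0.0562 to 0.0778). For Wnt5b the log2 change was −0.85 ± 0.31 and −0.78 ± 0.29 (adjusted p = 0.0273 and 0.0339). The day 3 call was lost without replicate 1 or 2 of Erg or replicate 1 or 3 of SEG (0.0553 to 0.103), and the day 7 call without any Erg library or replicate 2 or 3 of SEG (0.0586 to 0.179). Without both outlying libraries the day 7 changes were −1.29 for Wnt2, −0.40 for Wnt9a and −1.09 for Wnt5b, all called. Wnt9b, described above, is the fourth ligand lower in SEG.

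Compared with Sox17, 4 ligands were lower in SEG and 0 higher at day 3 (28.3% of all genes were called, 14% higher and 14.2% lower), and likewise at day 7 (39.9% called, 18.8% higher and 21.2% lower). They were Wnt16, Wnt9a, Wnt5b and Wnt2 at both days. Wnt9a was lower in SEG by a log2 change of −2.12 ± 0.17 at day 3 and −1.31 ± 0.16 at day 7 (adjusted p = 5.9e-09 and 1.77e-06), and Wnt5b by −1.57 ± 0.30 and −2.24 ± 0.29 (adjusted p = 0.000356 and 2.74e-06). Wnt2 was lower by −1.23 ± 0.34 and −2.17 ± 0.32 (adjusted p = 0.00947 and 1.63e-05). Without both outlying libraries the day 7 changes were −1.42 for Wnt9a, −2.22 for Wnt5b and −1.82 for Wnt2. Wnt11 did not pass at either day (adjusted p = 0.428 and 0.113), but at day 7 it was higher in SEG by 0.41 with a replicate block within the 2 groups (adjusted p = 0.0253) and by 0.57 without replicate 1 of Sox17 (adjusted p = 0.0194). With the block, 6 ligands were called at day 7 in place of 4, Wnt11 and Wnt5a being added. Wnt4 at day 3 (0.84, adjusted p = 0.172) was called without replicate 3 of SEG (1.21, adjusted p = 0.0464).

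The SEG effect was also set against the sum of the Erg and Sox17 effects on the log2 scale, where 0 means that the effects add. At day 3 it differed for 7 ligands, 6 below the sum and 1 above (36% of all genes were called, 18.2% above and 17.8% below), and at day 7 for 6, with 5 below and 1 above (48.8% called, 23.8% above and 25% below). Wnt2 lay furthest below among the ligands with enough counts at day 7, at −6.65 ± 0.56 (adjusted p = 8.58e-09, and −7.35 without replicate 3 of control), after −4.12 ± 0.56 at day 3 (adjusted p = 7.02e-06). Wnt11 lay at −2.22 ± 0.32 and −0.99 ± 0.31 (adjusted p = 1.6e-05 and 0.0117), Wnt9a at −2.40 ± 0.24 and −2.30 ± 0.23 (1.17e-07 and 1.24e-07), and Wnt5b at −1.89 ± 0.42 and −2.60 ± 0.40 (0.00148 and 2.73e-05). Wnt5a was below the sum at day 3 (−1.28 ± 0.40, adjusted p = 0.0156) and did not pass at day 7 (adjusted p = 0.26). Wnt4 was above it at day 3 (3.00 ± 0.65, adjusted p = 0.00102), where Erg and Sox17 each fell and SEG did not pass. Wnt2b was above it at day 7 (1.81 ± 0.70, adjusted p = 0.0393), which was lost without any of 8 libraries of day 7, replicates 2 and 3 of control, 1 and 2 of Erg, 1 and 2 of Sox17, and 2 and 3 of SEG (0.0502 to 0.155). It was also lost without the filter (0.0752) and when fitted without the groups of day 3 (0.0948). Wnt16 was below it at day 3 (−4.68 ± 1.37, adjusted p = 0.0119), which was lost without replicate 1 of Erg (−3.83, adjusted p = 0.121) and stood at −5.28 without replicate 2 and −4.06 without replicate 3 of SEG. It was called below at day 7 too (adjusted p = 0.0317), lost without replicate 2 or 3 of Erg or of SEG (0.0518 to 0.102) and without the groups of day 3 (0.0736), and no size is given because SEG had 0 counts. For Wnt9b no size could be fitted, since Sox17 and control had 0 counts. Without both outlying libraries the day 7 values were −6.33 for Wnt2, −1.03 for Wnt11, −2.45 for Wnt9a, −2.63 for Wnt5b and 1.88 for Wnt2b. All 3 effects share the control libraries of their day.

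**Figure D4:**
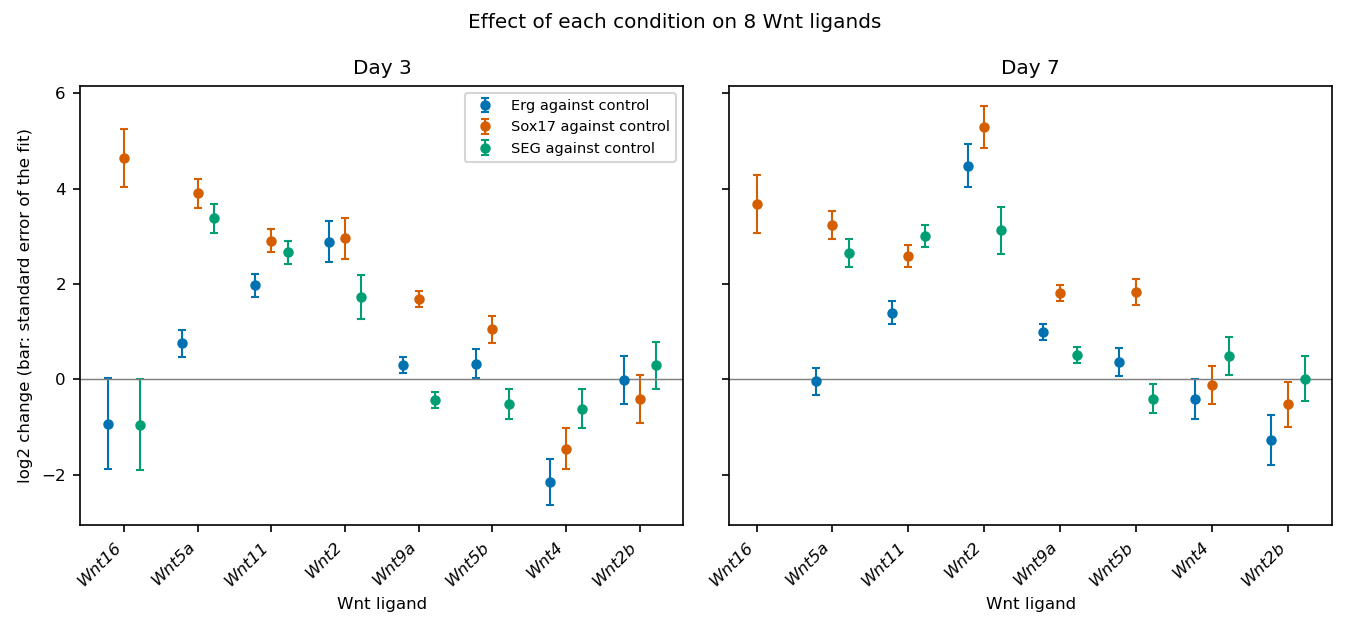
Log2 change against control, with its standard error, for Erg, Sox17 and SEG at day 3 (left) and day 7 (right) in 8 Wnt ligands; Wnt16 points of Erg and SEG at day 7 are left out because those groups held 3 or fewer counts. The SEG points of Wnt2, Wnt9a and Wnt5b lie below those of Erg and Sox17 at either day, and those of Wnt5a lie near Sox17.

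Between the days, fewer ligands were called in Erg, Sox17 and SEG than against control, and fewer of all genes were called as well. These counts are too small to set the ligands apart from all genes. At day 7 against day 3, 1 was higher and 1 lower with Erg (30% of all genes were called, 15.6% higher and 14.4% lower), and 3 were higher with Sox17 (29.5% called, 16.6% higher and 12.9% lower). In SEG 2 were higher (27.2% called, 14.3% higher and 12.9% lower), and in control 0 were called (29.5% called, 16.1% higher and 13.4% lower). In control 1 ligand, Wnt11, had an unadjusted p under 0.05 in edgeR (adjusted p = 0.11), DESeq2 called 0, and 1 was called in edgeR in a fit of only the control groups or without both outlying libraries. With Erg, Wnt4 was higher at day 7 (1.53 ± 0.48, adjusted p = 0.0211), a call lost without replicate 2 or 3 of day 3 or replicate 1 or 2 of day 7 (0.051 to 0.0788). With Sox17, Wnt2 was higher (1.51 ± 0.30, adjusted p = 0.000791, and 1.26 without both outlying libraries), as was Wnt5b (1.17 ± 0.26, adjusted p = 0.00233, and 0.87 without them, but adjusted p = 0.0754 with both Sox17 groups fitted alone). Wnt4 was higher with Sox17 at the border of the threshold (1.12 ± 0.42, adjusted p = 0.0494), lost without replicate 2 or 3 of day 3 or replicate 1 or 2 of day 7 (0.07 to 0.195). It was also lost without the filter (0.0668), with both Sox17 groups fitted alone (0.248) and without both outlying libraries (0.81, adjusted p = 0.167). In SEG, Wnt11 was higher at day 7 (0.92 ± 0.20, adjusted p = 0.00186) and so was Wnt9a (0.67 ± 0.17, adjusted p = 0.00497), at 0.80 and 0.78 without both outlying libraries. The change of an effect between the days was called, each time as a larger value at day 7, for Wnt9a with Erg (19.7% of all genes called, 9.34% higher and 10.4% lower), for Wnt2 with Sox17 (14.3% called, 7.61% higher and 6.66% lower) and for Wnt9a in SEG (11.9% called, 6.09% higher and 5.77% lower).

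Of the 9 ligands outside the 10, 2 passed the filter. Wnt6, a beta-catenin ligand of epithelia, had 1.89, 2.20 and 2.19 CPM in Erg libraries at day 7, against 0, 0.227 and 0.254 CPM in control (log2 change 3.59, adjusted p = 0.000118). Wnt8b, a ligand of the developing forebrain, had 1.64, 1.12 and 1.13 CPM in Erg libraries at day 3, against 0.112, 0 and 0.0512 CPM in control, a ratio of 24 with a counting interval of 7.96 to 119 (adjusted p = 0.000235). At day 7 it had 0.323, 0.489 and 0.609 CPM in Erg and 0 counts in control, at least 10.4-fold higher. Both rose with Erg, the condition that held Wnt9b, and neither passed in SEG. With Sox17, Wnt8b was called at day 7 (16 counts against 0 in control, adjusted p = 0.0167).

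The rest of the pathway was read from lists by role, each count given beside the share of all genes called. For the lists of secretion, transducers and R-spondins only single genes are named, without counts of genes called. The pathway genes named below kept their direction and call in the day 7 comparisons of Sox17 and SEG with control without both outlying libraries, where they had one. Of the 6 genes of ligand secretion and binding at the surface, Wls, the carrier, fell with Sox17 and in SEG at day 3 (log2 change −0.41 and −0.52) and in all 3 conditions at day 7 (−0.43 with Erg, −0.81 with Sox17 and −0.43 in SEG). Porcn, the acyltransferase, had 5.48 ± 0.474 CPM in Erg, against 3.78 ± 0.478 in control at day 3, and 5.60 ± 0.499 in Erg, against 12.1 ± 1.54 in control at day 7, so it was called higher at the first day (adjusted p = 0.00266) and lower at the second (adjusted p = 4.94e-07). The glypican Gpc4, a heparan sulphate proteoglycan that binds ligands, came to 431 ± 16.2 CPM in SEG on day 7, with 147 ± 2.31 in control (log2 change 1.55). It was also higher in SEG at day 3 (0.47) and with Sox17 at both days (0.58 and 0.96), and fell with Erg at day 3 (−0.97 ± 0.06).

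All 18 receptors and co-receptors were tested. With Erg 4 rose and 3 fell at day 3 (22.6% and 23.5% of all genes), and 4 rose and 7 fell at day 7 (23.7% and 24.8%). With Sox17 2 rose and 10 fell at day 3 (20.8% and 19.6% of all genes), and 3 rose and 11 fell at day 7 (29.5% and 25%), with a median log2 change of −0.46 and −0.45. In SEG 4 rose and 6 fell at day 3 (20% and 20.2% of all genes), and 5 rose and 8 fell at day 7 (22.5% and 21.8%). Fzd3, a Frizzled of axon guidance and polarity, reached 19.8 ± 4.08 CPM in Sox17 and 12.6 ± 1.96 in SEG at day 3, against 1.98 ± 1.09 in control (log2 change 3.32 and 2.67). Fzd4, the Norrin receptor of retinal vessels, reached 217 ± 30.9 CPM in Sox17 and 150 ± 10.5 in SEG, against 65.5 ± 0.996 in control at day 3 (1.73 and 1.19). At day 7 it had 243 ± 89.0 CPM in Sox17 and 243 ± 54.7 in SEG, against 68.2 ± 9.24 in control. Its lowest values at day 7, 143 CPM in Sox17 and 180 in SEG, were those of the outlying libraries, and the others had 272 and 313 CPM in Sox17 and 274 and 276 in SEG. Fzd2 fell with Erg and in SEG, to 41.0 ± 2.66 and 40.5 ± 0.519 CPM at day 3, against 119 ± 6.50 in control. Lrp5, a co-receptor, rose with Erg at day 3 to 405 ± 4.28 CPM, against 194 ± 5.70 in control (1.06 ± 0.16). Ror2, a receptor of Wnt5a, rose with Erg at day 7 (0.97 ± 0.11) and stood at 28.1 ± 2.5 CPM in Erg, 7.60 ± 1.35 in Sox17, 4.84 ± 0.324 in SEG and 14.4 ± 1.24 in control. Reck, a partner of Adgra2 in Wnt7 signalling, fell with Sox17 at both days (−1.41 and −1.73) and with Erg at day 7 (−1.01). In SEG at day 7 it had 44.9, 65.8 and 65.9 CPM, against a mean of 116 in control.

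Of 12 secreted antagonists, 8 were tested. With Erg 0 rose and 3 fell at day 3 (of all genes 22.6% and 23.5%), and 0 rose and 4 fell at day 7 (23.7% and 24.8%). With Sox17 5 rose and 2 fell at day 3 (of all genes 20.8% and 19.6%), and 3 rose and 2 fell at day 7 (29.5% and 25%). In SEG 3 rose and 4 fell at day 3 (of all genes 20% and 20.2%), and likewise at day 7 (22.5% and 21.8%). Sfrp1 and Dkk3 fell in all 6 comparisons with control. Sfrp1, which binds ligands, stood at 206 ± 6.76 CPM in Erg, 148 ± 8.18 in Sox17 and 180 ± 7.85 in SEG, against 969 ± 59.1 in control at day 3. At day 7 it stood at 92.1 ± 13.9, 66.3 ± 12.9 and 40.6 ± 7.63 CPM in the same order, against 722 ± 82.2 in control (log2 change −2.97, −3.45 and −4.15). Dkk3, a divergent Dickkopf with little effect on Lrp receptors, fell most with Sox17 (−4.47 ± 0.16 at day 3) and in SEG (−4.24 ± 0.16 at day 7). Frzb, which binds ligands, fell with Erg by 0.85 on the log2 scale at day 3 and fell again at day 7, fell in SEG too, and rose with Sox17 (log2 change 0.72 and 0.61). Dkk2, which binds Lrp5 and Lrp6, was found mostly in SEG, with 25.7 ± 3.51 CPM on day 3 (1.5 ± 0.327 in control) and 99.2 ± 10.3 on day 7 (0.735 ± 0.124 in control) (log2 change 4.10 ± 0.23 and 7.08 ± 0.26). Sostdc1, an inhibitor of Wnt and BMP signals, reached 106 ± 20.9 CPM in Sox17 and 0.184 ± 0.0533 in SEG at day 7, against 0 counts in control, which makes Sox17 at least 2194-fold higher. Sost, the inhibitor known from bone cells, had 538 counts in Sox17 and 254 in SEG at day 7, against 0 in control. Sfrp2 was higher with Sox17 at day 3 (15.8 ± 0.545 CPM against 2.11 ± 0.791 in control).

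**Figure D5:**
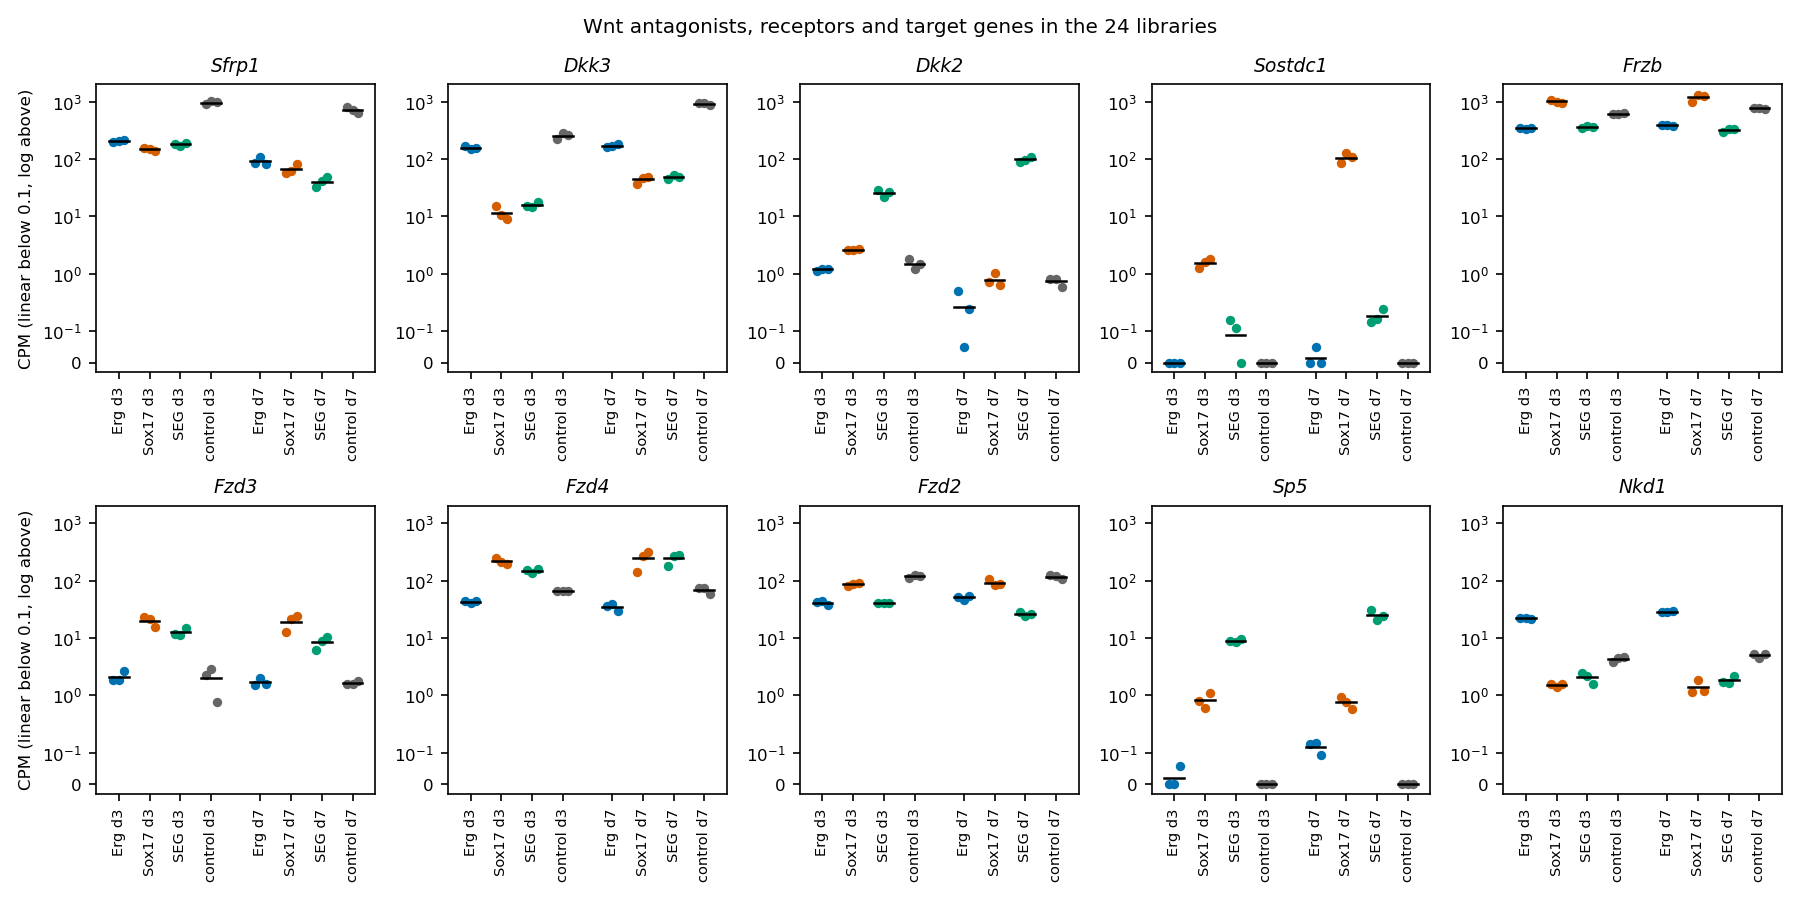
CPM of 5 secreted antagonists (Sfrp1, Dkk3, Dkk2, Sostdc1, Frzb), 3 Frizzled receptors (Fzd3, Fzd4, Fzd2) and 2 beta-catenin target genes (Sp5, Nkd1) in all 24 libraries (points; bars are means of 3; the axis is linear below 0.1 CPM and logarithmic above). Sfrp1 is highest in control, Dkk2 and Sp5 in SEG, Sostdc1 in Sox17 at day 7 and Nkd1 in Erg.

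All 12 target genes of beta-catenin were tested. With Erg 3 rose and 3 fell at day 3 (22.6% and 23.5% of all genes were called), and 4 rose and 4 fell at day 7 (23.7% and 24.8%). With Sox17 4 rose and 4 fell at day 3 (20.8% and 19.6% of all genes), and 6 rose and 3 fell at day 7 (29.5% and 25%). In SEG 3 rose and 4 fell at day 3 (20% and 20.2% of all genes) and at day 7 (22.5% and 21.8%). The counts are too small to set these shares apart from those of all genes. Without both outlying libraries the day 7 counts were 7 up and 2 down with Sox17 and 5 up and 4 down in SEG. Nkd1, a feedback inhibitor, stood at 21.9 ± 0.339 CPM in Erg, 1.51 ± 0.0869 in Sox17 and 2.06 ± 0.449 in SEG, against 4.31 ± 0.413 in control at day 3, and so rose with Erg (2.34 ± 0.16). Ccnd1, the G1 cyclin, was 1.73 higher on the log2 scale with Erg and fell by 1.97 with Sox17 and by 1.96 in SEG at day 3. At day 7 it was 1.63 higher with Erg. The day 7 libraries had 570, 739 and 677 CPM in Sox17 and 362, 379 and 362 in SEG, against 656 ± 58.5 in control. Axin2, a feedback inhibitor widely used as a reporter of the pathway, rose in all 6 comparisons with control (log2 change 1.53 to 2.80), and at day 7 stood at 3.01 ± 0.677 CPM in Erg, 5.51 ± 2.45 in Sox17 and 3.87 ± 0.472 in SEG, against 0.794 ± 0.249 in control. The outlying Sox17 library had 2.68 CPM of Axin2, and the others 6.90 and 6.95. Sp5, a zinc finger target, was at 8.91 ± 0.418 CPM in SEG at day 3 and 25.1 ± 5.43 at day 7 with control at 0 counts, at least 172-fold and at least 523-fold higher. Apcdd1, a membrane-bound inhibitor, fell in all 6 comparisons, among them to 5.47 ± 0.0839 CPM in SEG, against 48.5 ± 2.47 in control at day 7 (−3.15 ± 0.16). Among the 11 transducers, Dvl2, a Dishevelled, fell in all 6 comparisons (−0.46 to −0.86). Of the R-spondins and their receptors, which raise Frizzled levels, 4 of 7 were tested. Lgr6 rose with Erg at day 3 (2.08 ± 0.26). Lgr4 fell with Erg (−0.68 and −0.93), and rose with Sox17 (0.88 and 1.21) and in SEG at day 7 (1.31 ± 0.24).

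Marker lists of the cells and of other cell types were summed, and their part in the results above was not tested. The 10 endothelial markers at day 3 summed to 202 to 211 CPM in Erg, 529 to 629 in Sox17 and 1471 to 1612 in SEG, against 24.3 to 26.3 in control. The summed level of 10 endothelial markers at day 7 ran from 165 to 176 CPM in Erg, 163 to 390 in Sox17 and 2066 to 2364 in SEG, against 28.7 to 32.3 in control, with Cldn5 at 0 in Sox17 and control. Of these 10 markers, at day 7, 8 rose and 1 fell with Erg (23.7% and 24.8% of all genes), 7 rose and 1 fell with Sox17 (29.5% and 25%), and 9 rose and 0 fell in SEG (22.5% and 21.8%). In the outlying Sox17 library the endothelial sum was 163 CPM, and without it 371 and 390. The 10 fibroblast markers summed to 10192 to 11347 CPM in Erg, 6493 to 10555 in Sox17 and 17443 to 19110 in SEG, against 23213 to 24784 in control at day 7, and none was at 0. At day 3 they summed to 19469 to 20205 CPM in Erg, 15866 to 16272 in Sox17 and 17666 to 18942 in SEG, against 29655 to 32356 in control. The 8 smooth muscle and pericyte markers summed to 559 to 599 CPM in Erg, 1856 to 2726 in Sox17 and 1058 to 1396 in SEG, against 484 to 555 in control at day 3. At day 7 they came to 490 to 545 CPM in Erg, 2533 to 4443 in Sox17 (4443 in the outlying library) and 1524 to 1929 in SEG, against 91.6 to 106 in control. Kcnj8 of this list was at 0 in Sox17 at both days and in SEG at day 3. The 8 macrophage markers summed to 169 to 194 CPM in Erg, against 39.2 to 48.7 in control at day 7, none at 0, and 7 of them rose and 1 fell with Erg (23.7% and 24.8% of all genes). In Sox17 the macrophage sum was 27.0 to 32.6 CPM and in SEG 40.7 to 50.1 at day 7. At day 3 it was 41.2 to 45.2 CPM in Erg, 17.3 to 18.3 in Sox17 and 21.5 to 21.7 in SEG, against 27.4 to 30.6 in control. Schwann cell and neuron markers summed to 53.0 to 56.0 CPM in Erg, 233 to 267 in Sox17 and 27.2 to 30.7 in SEG, against 138 to 155 in control at day 3. At day 7 the Schwann cell and neuron sum was 16.4 to 19.2 CPM in Erg, 126 to 186 in Sox17 and 42.4 to 46.6 in SEG, against 28.1 to 31.7 in control, with Snap25 and Sox10 at 0 in SEG and Snap25 at 0 in control. Cardiomyocyte markers summed to 11.4 to 12.7 CPM in Erg, 9.92 to 13.0 in Sox17 and 5.73 to 6.90 in SEG, against 52.9 to 56.7 in control at day 3. The day 7 cardiomyocyte sum was 10.6 to 13.8 CPM in Erg, 23.8 to 73.6 in Sox17 (73.6 in the outlying library) and 9.93 to 16.0 in SEG, against 75.3 to 94.5 in control. Mesothelial and epicardial markers stayed between 1.99 and 23.6 CPM in every library. Epithelial markers stayed at 1.27 CPM or less in every library.

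Genes with the pattern most like each ligand were looked up by Pearson correlation of log2 CPM over the 24 libraries, among 11431 genes, as a description only, since the libraries share 8 groups. For Wnt9b they were Lyzl4 (r = 0.998), Cyp1a2 (0.996) and Col13a1 (0.991). Lyzl4 averaged 20.2 ± 1.01 CPM in Erg at day 3 and 18.8 ± 2.79 at day 7, and 0 to 0.0152 in all other groups. For Wnt2 they were Nes (0.951), Aplp1 (0.945) and Tmem63b (0.920), and Nes, an intermediate filament gene, stood at 123 ± 3.43 CPM in Erg, 148 ± 46.0 in Sox17 and 67.8 ± 7.94 in SEG, against 10.9 ± 2 in control at day 7. The outlying Sox17 library had 201 CPM of Nes, and the others 120 and 124. For Wnt11 they were Exoc6 (0.951), Coro7 (0.936) and Ttc5 (0.936), and for Wnt16 Trak1 (0.956), Fbn2 (0.945) and Abcb10 (0.945). Wnt9a was most like Mgat3 (0.927), Slc7a14 (0.914) and Necab1 (0.908), and Wnt5b most like Kcnj4 (0.919), Phlda3 (0.912) and Pir (0.906). The likeness was lower for Wnt4, with St3gal5 (0.803), Rprd1a (0.764) and Oas1a (0.763), and for Wnt2b, with Pcdhb21 (0.657), Srcap (0.635) and Mr1 (0.621). Among the ligands themselves Wnt5a and Wnt11 had r = 0.80, Wnt9a and Wnt16 r = 0.78, and Wnt5b and Wnt9a r = 0.74. Of the 27 genes named, 4 were also among the nearest 3 by Spearman correlation and 11 by Pearson correlation over the 8 group means.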

How the data were processed

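Messenger RNA libraries of mouse heart fibroblasts (24, in 8 groups of 3) were prepared with an RNeasy kit and a Novogene mRNA service, per the labels' protocols. The authors deposited whole-number counts per gene. Salmon, DESeq2 and mm10 are named, without their roles, per the submitters' processing notes. The sources used here give no version, annotation release, strand setting or rounding. Every row is a gene ID; 35422 of 35727 were matched to a symbol, and the other 305 were kept under their ID in library sizes and tests. Library sizes were summed over the genes that passed the filter. Total counts set the precision, from 18794422 to 44586227 per library.

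Counts were fitted with edgeR 4.0.16 (quasi-likelihood, R 4.3.3, limma 3.58.1) to 8 group means over all 24 libraries, with TMM scaling and filterByExpr at a minimum count of 10, which left 14804 genes. The 19 comparisons were adjusted over all these genes by Benjamini-Hochberg, and 0.05 was the threshold. CPM used TMM-scaled library sizes. Log2 changes used edgeR's prior count of 0.125, and the likeness measure a prior of 2. Where a group held 3 or fewer counts, a bound at a floor of 3 counts over the group, or a ratio with its 95% exact counting interval, replaced the fold. Pathway genes were drawn from a rule, up to 3 called genes with the largest change per list and comparison with control, at 5 CPM or more in the higher group. Not every gene that the rule gave is described. Among those left out are Gpc3 and Gpc6, with log2 changes of −2.36 and −1.66 for Sox17 against control at day 3. The choice among the genes of the rule, other genes, and other values given for these genes were made after their values were seen.

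The members and lists were chosen with earlier results of these data known. No pair of libraries agreed within sampling noise (lowest chi-square per degree of freedom 2.83). Replicate numbers paired libraries only between SEG and Sox17 at day 7, where same-numbered libraries deviated together (r = 0.69, 0.40 and 0.44). Alternatives were RLE size factors, no filter, a replicate block, DESeq2 1.42.0, only the groups compared, each library left out, and both outlying day 7 libraries left out. The block within Sox17 and SEG at day 7, and the sums, shares and lists without both outlying libraries, were chosen after seeing the data. Promoters came from RefSeq on GRCm38.p6, and gene lengths are merged exons. A planned search of protein sequences was not run, since no protein table was used here. Figures were drawn with matplotlib 3.10.9.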

Additional observations from a re-analysis of the deposited data

Results flagged for a closer look

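For 3 ligand effects, the change against control differed between day 7 and day 3 by the interaction test of edgeR, each among 9 ligands tested. The Wnt2 change with Sox17 was larger at day 7 by 2.34 ± 0.71 on the log2 scale (adjusted p = 0.0327; 5.29 at day 7 and 2.96 at day 3). The Wnt9a change with Erg was larger at day 7 by 0.70 ± 0.24 (adjusted p = 0.044), and that in SEG by 0.94 ± 0.24 (adjusted p = 0.0128). Without replicate 3 of control at day 7 the Wnt2 value was 3.03, and it was not called without replicate 2 of control at day 3 (1.86, adjusted p = 0.183), replicate 1 or 2 of control at day 7 (0.0681 and 0.0631) or replicate 1 of Sox17 at day 3 (0.0601), nor with only the Sox17 and control groups fitted (2.32, adjusted p = 0.136). The Wnt9a value with Erg was not called without replicate 1 or 2 of control at day 3, replicate 2 or 3 of control at day 7, any Erg library of day 3, or replicate 1 or 2 of Erg at day 7 (adjusted p = 0.0568 to 0.126), nor without the filter on low counts (0.72, adjusted p = 0.0639).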

How the results depend on the processing

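No tabulated result reversed under the alternatives run. Most uncalled values were not tabulated, among them those with small changes, which change sign most easily. Of the called values of single ligands, 918 alternative values kept their direction and side of the threshold and 79 were no longer called. For the values not called, alternatives were tabulated for 21 of 96, of which 229 alternative values stayed uncalled and 20 became called. Counts of ligands moved by over 1.5 times in the comparisons of days. For day 7 against day 3 with Erg, 2 were called, against 4 by DESeq2, 5 with only the groups compared and 5 without both outlying libraries. With Sox17, 3 were called, against 1 with only the groups compared, and in control 0, against 1 with only the groups compared and 1 without both outlying libraries. For the change of the Erg effect, 1 was called, against 0 without the filter, 2 with the replicate block, 2 by DESeq2, 3 with only the groups compared and 3 without both outlying libraries. For the change of the Sox17 effect, 1 was called, against 2 with the replicate block and 0 with only the groups compared. With 1 library left out at a time the counts ran from 3 to 5 for SEG against control at day 7, 4 to 7 and 4 to 6 for SEG against Erg at day 3 and day 7, 1 to 3 for day 7 against day 3 with Erg, 0 to 2 for the change of the Erg effect and 0 to 2 for that of the Sox17 effect. Fits of only the groups compared or with libraries left out hold fewer samples, while the other alternatives hold all 24. The cause of these moves was not tested. Outside SEG and Sox17 at day 7, same-numbered libraries did not deviate together in every pair and share only a number. A replicate block over all 24 libraries added as calls Wnt9a for SEG against control at day 3 (adjusted p = 0.0371), Wnt2b for Erg against control at day 7 (0.0209), Wnt4 for SEG against Sox17 at day 3 and day 7 (0.0299 and 0.0366) and Wnt4 for SEG against Erg at day 7 (0.00939), and in the comparisons with control and of SEG with either factor it lost none. Depth limits Wnt16, Wnt2b, Wnt4, Wnt10b and Wnt2 in control, which had few counts per library.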
